A study of Mus musculus with 9 samples.

Results

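The Wnt signalling genes described here are 44 named genes: 14 ligands, 10 Frizzled receptors, 2 Lrp co-receptors, 2 R-spondin receptors, 8 secreted antagonists, 5 nuclear mediators and 3 feedback inhibitors that are themselves induced by the pathway. They were taken by symbol from a table of log2 expression levels for 20690 named genes, and all 44 were found in it. The levels come from 9 Affymetrix Mouse Gene 1.0 ST arrays, whole-transcript microarrays, in 3 groups of 3. Of the glioma lines, 3 carry EGFP-P2A-Erbb2 V664E, an activated receptor tyrosine kinase, and 3 carry EGFP-Hras G12V, an activated Ras GTPase. The third group holds neural stem and progenitor cells (NSC) that received reporter genes without an oncogene. NSC 1 was given Membrane EGFP and NSC 2 Histone 3.3-EGFP, while for NSC 3 the label names no green reporter and gives sorting by BFP. TagBFPnls-V5 and pBase were electroporated in all 3 groups. The mice were CD1, except for NSC 3, which came from C57/Bl6 mice with a floxed Dnm2 gene and, per its label, no Cre. The electroporated subventricular zone was dissected, and its cells were grown without serum in EGF, FGF and heparin and sorted, for high GFP where a green reporter was given. The sources used here give neither the promoter of the transgenes nor the age of the mice. They do not tie the cultures to separate animals either, and p-values thus measure only the spread between cultures, which may be in part technical.

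Wnt proteins are secreted lipid-modified ligands that bind Frizzled receptors, and together with Lrp5 or Lrp6 they stop the destruction of beta-catenin, which then enters the nucleus and activates genes with TCF and LEF factors. Other Wnt signals run through Frizzled and Ror receptors without beta-catenin and steer cell shape and movement. In the subventricular zone and the developing forebrain the pathway is known to act on the division of stem cells and on the choice between neuronal and glial fates, and in the oligodendrocyte lineage its activity is known to hold back differentiation.

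All groups carried the stem cell marker Sox2, at log2 levels of 10.52 to 11.55. The mean of 10 markers of neural stem cells and radial glia lay between 9.24 and 10.28 on every array, and the means of endothelial, microglial, ependymal, choroid plexus and pericyte or fibroblast markers lay between 4.82 and 6.55, with neuronal markers at 6.25 to 8.09. Markers of oligodendrocyte precursors differed between lines, with means from 7.82 to 11.07, and are given below beside the genes that moved with them. Single markers departed from the means of their lists. Among stem cell markers Prom1 lay at 4.94 to 6.25. Slc1a3 was lower in all tumour lines than in NSC (mean difference -1.69, SE 0.64, limma adjusted p = 0.406). Pax6 differed by -1.42 (SE 0.47, limma adjusted p = 0.324), with overlap. The endothelial marker Flt1 reached 9.90 in Hras 3, the pericyte or fibroblast marker Acta2 10.08 in NSC 2 and the neuronal marker Map2 11.29 in NSC 3. Fewer cells of a type and less RNA per cell cannot be told apart in such bulk samples. The arrays were not on a common scale: over all genes the median difference was 0.16 for Hras lines minus NSC, -0.14 for Erbb2 lines minus NSC and 0.29 for Hras minus Erbb2 lines. NSC 1 had the lowest array weight in limma, 0.288, and its median over 1354 olfactory, vomeronasal and taste receptor rows, which stand for background, was 4.94 against 4.13 to 4.51 on the others. The 90th percentile of the mean level of those rows, 5.24, was taken as a limit for dim genes. Of the 44 genes, 37 lay above it on every array, and Wnt1 and Wnt8b had means below it. Levels of different genes, and so the means of different marker lists, come from different probes and were not compared with each other.

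None of the 44 genes passed limma's test, for which p was adjusted over all genes by the Benjamini-Hochberg method and the threshold was 0.05. In Hras lines against NSC 0 of 44 were called beside 0% of all genes, and 7 of 44 had an unadjusted p under 0.05 beside 12% of all genes. In Erbb2 lines against NSC 0 of 44 were called beside 0.00967% of all genes, and 9 of 44 had an unadjusted p under 0.05 beside 9.23%. In Hras against Erbb2 lines 0 of 44 were called beside 0% of all genes, with 7 at an unadjusted p under 0.05 beside 12.7%. When the tumour groups were averaged and set against NSC, 0 of 44 were called beside 0.353% of all genes, with 6 at an unadjusted p under 0.05 beside 10%. The smallest adjusted p of any of the 44 was 0.164. A second description counts genes whose arrays do not overlap between groups. In Hras lines against NSC it held for 7 of 44 beside 14.5% of all genes, with 4 higher (11.9% of all genes) and 3 lower (2.58%). In Erbb2 lines against NSC it held for 14 of 44 beside 17.7%, with 2 higher (5.09%), Lef1 and Sfrp1, and 12 lower (12.6%). The values below are differences in measured level that are not shown to exceed the spread between cultures, and the comparisons with NSC share the same 3 NSC arrays. The deposited column names open with a number whose meaning is not stated. No NSC column shares it with a tumour column, so what it marks cannot be told apart from the difference between tumour lines and NSC.

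**Figure D1:**
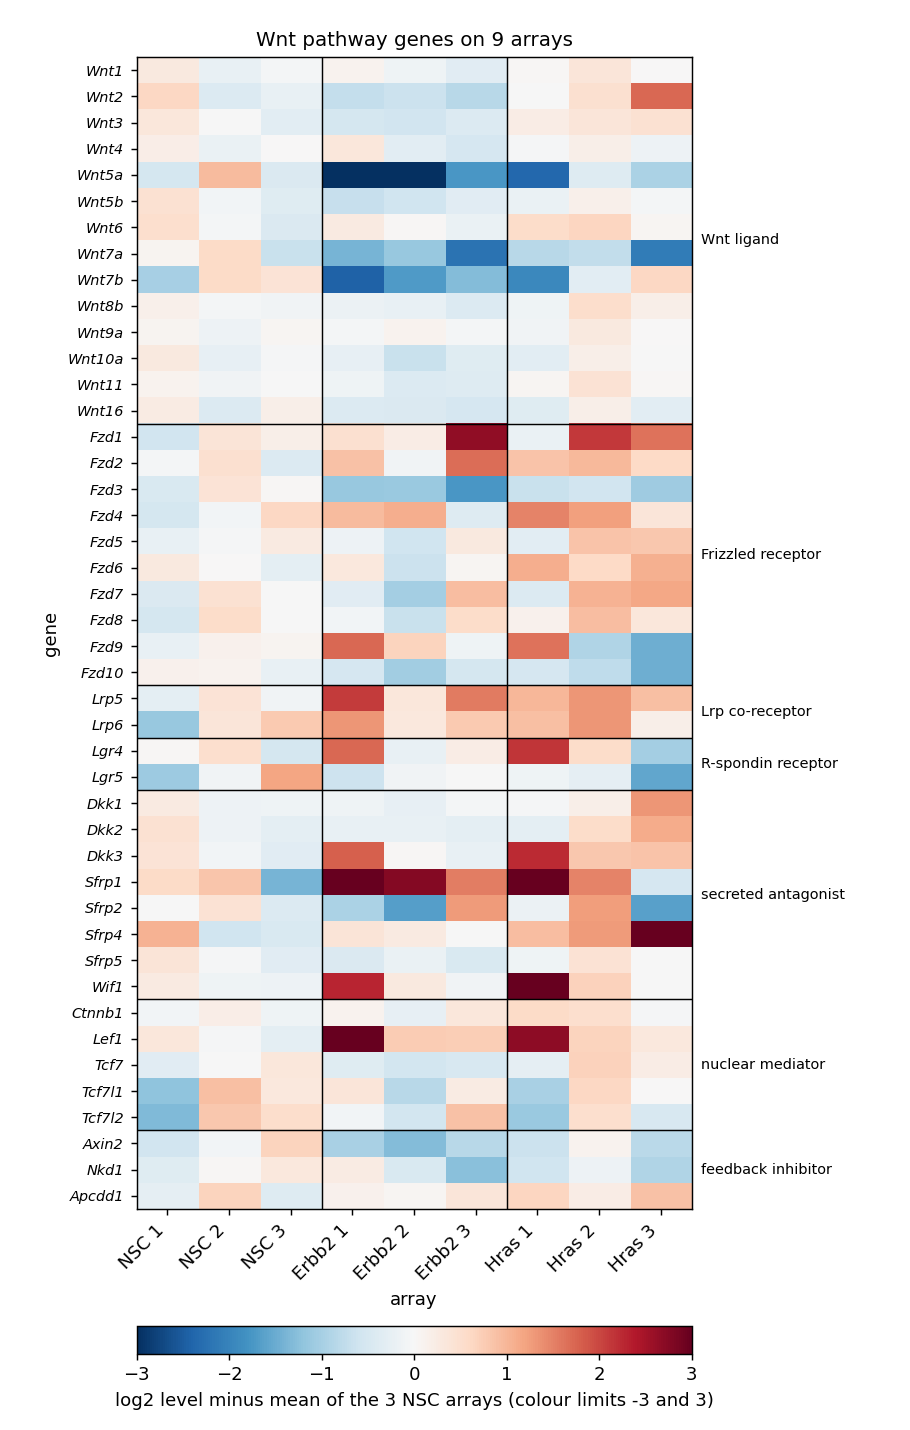
Log2 level of each of the 44 genes (rows, grouped by role) on each array (columns), as the difference from the mean of the 3 NSC arrays; red is higher, blue lower, and the colours end at -3 and 3. Wnt5a, Wnt7a and Fzd3 are blue on the Erbb2 arrays, and Sfrp1, Wif1 and Lef1 are darkest red on Erbb2 1 and Hras 1.

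Among the ligands, the 3 Erbb2 lines lay below every NSC array for 8 of 14, namely Wnt2, Wnt3, Wnt5a, Wnt7a, Wnt7b, Wnt8b, Wnt11 and Wnt16, beside 12.6% of all genes, and above every NSC array for 0. After quantile normalization the number of ligands lower in this way was 5 (Wnt2, Wnt5a, Wnt7a, Wnt7b and Wnt10a), beside 7.62% of all genes. After centring each array on its median it was 10, the 8 named with Wnt5b and Wnt10a, beside 13.8%. Over the receptor rows that stand for background, the median difference of Erbb2 lines from NSC was -0.30. Of the 8, Wnt8b (-0.27), Wnt11 (-0.31), Wnt16 (-0.45) and Wnt3 (-0.51) were nearest to that shift. Wnt2 differed by -0.74, Wnt7a by -1.58, Wnt7b by -1.82 and Wnt5a by -2.97. The median level of the receptor rows was 4.94, 4.27 and 4.29 in NSC 1, 2 and 3 and 4.18 to 4.19 in the Erbb2 lines. Without NSC 1, the same 8 ligands lay lower in the Erbb2 lines, beside 14.9% of all genes. The part of the shift in the count was not tested further. Of the Hras lines, all 3 lay below every NSC array for 1 ligand, Wnt7a, beside 2.58% of all genes. The number was 6 after quantile normalization and 8 after centring, where the share of all genes also went up, to 10% and 21.4%. Without NSC 1, 5 ligands lay higher in the Hras lines (Wnt1, Wnt2, Wnt3, Wnt6 and Wnt11), beside 31.4% of all genes, and Wnt7a lay lower, beside 5.07%.

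Wnt5a, a ligand known mainly for signals without beta-catenin, had log2 levels of 8.64, 10.11 and 8.72 in NSC 1, 2 and 3, of 5.66, 5.49 and 7.40 in Erbb2 1, 2 and 3, and of 6.80, 8.76 and 8.20 in Hras 1, 2 and 3. The Erbb2 lines all lay below NSC, Erbb2 1 and 2 lowest, while Hras 2 lay above 2 of the NSC arrays. Erbb2 lines differed from NSC by -2.97 (SE 0.66, limma adjusted p = 0.192), the largest difference of any of the 44 genes in these comparisons, and Hras lines from NSC by -1.24 (SE 0.66, limma adjusted p = 0.517), or by -0.68 without Hras 1. The 6 tumour lines together differed from NSC by -2.11 (SE 0.57, limma adjusted p = 0.216).

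Wnt7a and its close relative Wnt7b are ligands that neural progenitors and precursors of oligodendrocytes make and that act on brain endothelium. Wnt7a stood at 7.76, 8.23 and 7.01 in NSC 1, 2 and 3, at 6.28, 6.53 and 5.45 in the Erbb2 lines and at 6.83, 6.94 and 5.57 in the Hras lines. Each of the 6 tumour lines lay below each NSC array, the nearest pair being Hras 2 and NSC 3, and Erbb2 3 and Hras 3 were the lowest of their groups. The mean difference from NSC was -1.40 (SE 0.40, limma adjusted p = 0.236), with -1.58 in Erbb2 and -1.22 in Hras lines. Without Hras 3 the Hras difference was -0.78.

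Wnt7b had 7.49, 9.05 and 8.89 in NSC, 6.04, 6.77 and 7.17 in Erbb2 lines and 6.54, 8.15 and 9.10 in Hras lines. The Erbb2 lines lay below every NSC array (difference -1.82, SE 0.65, limma adjusted p = 0.456), while Hras 3 was higher than every NSC array and Hras 1 lower.

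The promoter of Wnt7a is shown as the ligand that lay apart in both kinds of tumour line. It is the RefSeq sequence of GRCm38.p6 from 250 bases before to 50 bases after the gene's start, at chr6:91411304-91411603 on the minus strand. It holds 0 matches to CTTTG, the core of the TCF and LEF motif (or CAAAG on the other strand), which 54% of 27025 promoters of the same length, 1 per gene, hold, and 0 matches to CCGGAA, the core of many Ets sites, which 15.2% hold.
Wnt7a: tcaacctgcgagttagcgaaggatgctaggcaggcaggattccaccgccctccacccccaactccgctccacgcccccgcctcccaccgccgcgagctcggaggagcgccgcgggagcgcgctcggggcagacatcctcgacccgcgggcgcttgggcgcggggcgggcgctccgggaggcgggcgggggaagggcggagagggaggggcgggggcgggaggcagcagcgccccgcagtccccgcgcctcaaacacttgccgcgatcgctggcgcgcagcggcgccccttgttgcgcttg

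The other ligands varied less. Wnt2 was at 4.98, 5.04 and 4.85 in Erbb2 1, 2 and 3 and at 5.68, 6.18 and 7.41 in Hras 1, 2 and 3, while NSC 1, 2 and 3 had 6.32, 5.28 and 5.48. All Hras lines thus lay above all Erbb2 lines, whose levels were under the limit for dim genes, and Hras 3 was highest. The difference between Hras and Erbb2 lines was 1.47 (SE 0.44, limma adjusted p = 0.391), and 0.97 without Hras 3. Wnt3 lay between 5.20 and 5.37 in Erbb2 lines, between 5.99 and 6.23 in Hras lines and between 5.46 and 6.11 in NSC. Wnt1, Wnt4, Wnt5b, Wnt6, Wnt8b, Wnt9a, Wnt10a, Wnt11 and Wnt16 each spanned at most 1.14 log2 units over the 9 arrays.

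**Figure D2:**
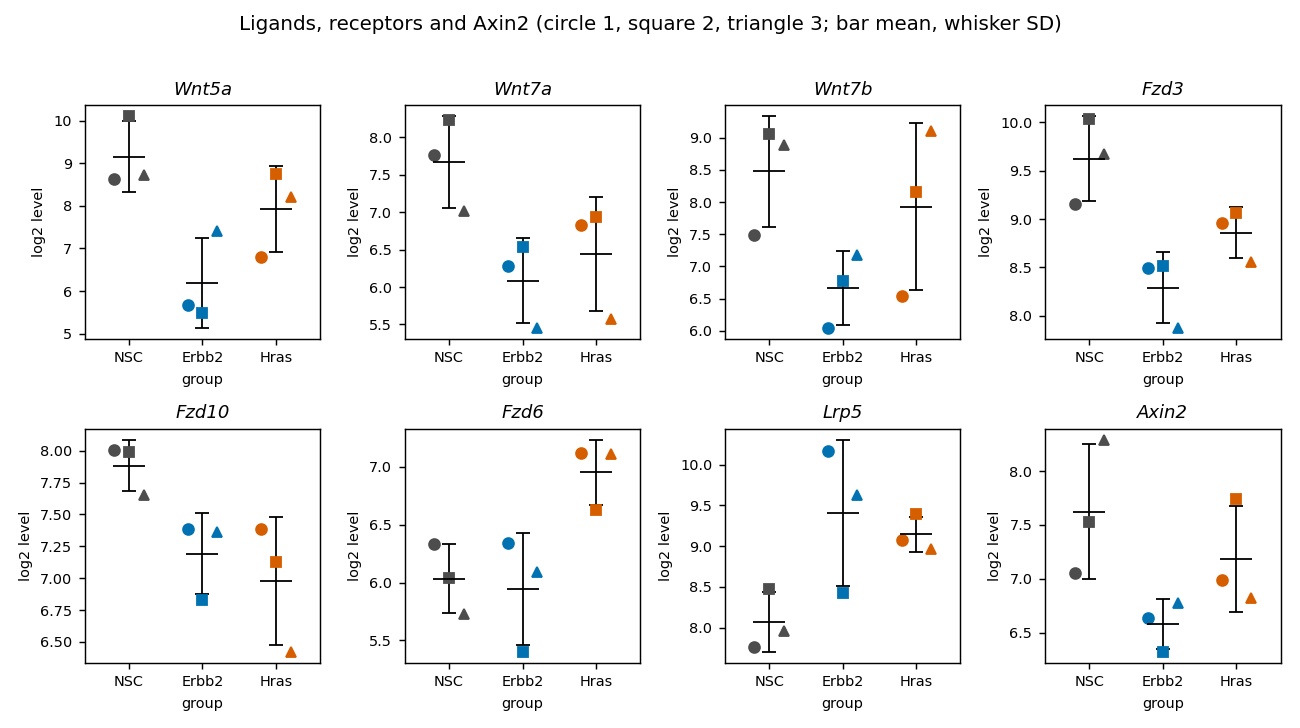
Log2 level (vertical axis) of 8 genes in NSC, Erbb2 and Hras cultures; each symbol is an array (circle 1, square 2, triangle 3), the bar is the mean of the group and the whisker its SD. Wnt7a, Fzd3 and Fzd10 are lower on all 6 tumour arrays than on any NSC array, and Lrp5 is lowest in NSC 1 and highest in Erbb2 1.

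Among the receptors, Fzd3 and Fzd10 lay below NSC in all 6 tumour lines, and together with Wnt7a they were the 3 genes of 44 for which tumour and NSC arrays did not overlap, beside 4.15% of all genes. All 3 were lower in the tumour lines, beside 1.28% of all genes, with 0 of 44 higher beside 2.87%, and all 3 also lay apart after quantile normalization and after centring. Fzd3, a Frizzled receptor of planar polarity and axon guidance, had 9.16, 10.04 and 9.67 in NSC 1, 2 and 3, 8.49, 8.51 and 7.87 in the Erbb2 lines and 8.96, 9.06 and 8.56 in the Hras lines. The lowest NSC array and the highest Hras line were close, and every Erbb2 line lay below every Hras line, though not after quantile normalization or centring. The mean difference of the tumour groups from NSC was -1.05 (SE 0.25, limma adjusted p = 0.164), and for Erbb2 lines alone -1.33 (SE 0.29, limma adjusted p = 0.186). Fzd10 had 8.01, 7.99 and 7.65 in NSC, 7.39, 6.83 and 7.36 in Erbb2 lines and 7.39, 7.13 and 6.42 in Hras lines, with Hras 3 lowest, a mean difference of -0.80 (SE 0.25, limma adjusted p = 0.287).

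Fzd6, another receptor of planar polarity, was at 7.12, 6.63 and 7.11 in the Hras lines, at 6.34, 5.40 and 6.09 in the Erbb2 lines and at 6.33, 6.04 and 5.73 in NSC. The Hras lines lay above both other groups, by 1.01 over Erbb2 lines (SE 0.29, limma adjusted p = 0.391) and by 0.92 over NSC (SE 0.29, limma adjusted p = 0.268), but after quantile normalization or centring they overlapped both. Fzd1 reached 11.81 in Erbb2 3, 11.27 in Hras 2 and 10.79 in Hras 3, against 8.58 to 9.63 on the other 6 arrays. Fzd2 spanned 7.79 to 8.15 in Hras lines and 6.78 to 7.66 in NSC, a gap that closed after quantile normalization or centring, and the Erbb2 lines, at 7.07 to 8.87, overlapped both. Fzd9 had its highest levels in Erbb2 1, at 10.61, and in Hras 1, at 10.52, and its lowest in Hras 3, at 7.41, while NSC spanned 8.66 to 9.02. Fzd4, Fzd5, Fzd7 and Fzd8 overlapped between all pairs of groups, with ranges of 6.02 to 8.05, 6.03 to 7.47, 6.63 to 8.80 and 6.67 to 8.28.

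Lrp5, a co-receptor needed for the beta-catenin branch, had 7.77, 8.48 and 7.96 in NSC 1, 2 and 3, 10.17, 8.42 and 9.63 in Erbb2 1, 2 and 3 and 9.07, 9.39 and 8.97 in Hras 1, 2 and 3. The Hras lines lay above every NSC array, and of the Erbb2 lines only Erbb2 2 fell within the NSC range. The mean difference of the tumour groups from NSC was 1.21 (SE 0.36, limma adjusted p = 0.261), with 1.34 for Erbb2 and 1.07 for Hras lines. Lrp6, the second co-receptor, was at 8.21 to 9.37 in the tumour lines and at 8.39 and 8.82 in NSC 2 and 3, while NSC 1 lay lowest at 6.90. Lgr4, a receptor for R-spondins that strengthen Wnt signals, was highest in Hras 1, at 9.42, and Erbb2 1, at 9.0, against 6.27 to 7.83 elsewhere. Its relative Lgr5, a marker of Wnt-dependent stem cells in the gut, differed most within NSC, from 6.05 in NSC 1 to 8.32 in NSC 3, the highest of the 9 arrays.

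Most secreted antagonists bind Wnt proteins or Lrp co-receptors. Over the 9 arrays the range of the 8 antagonists went from 0.90 for Sfrp5 to 6.14 for Sfrp1. Sfrp1, a soluble decoy with a Frizzled-like domain, stood at 7.95, 8.21 and 6.00 in NSC 1, 2 and 3, at 11.97, 10.13 and 8.92 in Erbb2 1, 2 and 3 and at 12.14, 8.88 and 6.88 in Hras 1, 2 and 3. All Erbb2 lines lay above NSC, whereas Hras 3 fell within the NSC range, and the spread within the Hras group (SD 2.66, n = 3) was over 5 log2 units from end to end. Erbb2 lines differed from NSC by 2.95 (SE 1.27, limma adjusted p = 0.528) and Hras lines by 1.91 (SE 1.27, limma adjusted p = 0.623), or by 0.49 without Hras 1 and 3.12 without Hras 3. Wif1, which binds Wnt proteins, reached 10.29 in Hras 1 and 7.84 in Erbb2 1, against 5.41 to 6.25 on the other 7 arrays. Over the 8 antagonists the median difference of Hras lines from NSC was 0.89, with 7 of 8 positive, beside a median of 0.16 and 14167 of 20690 positive over all genes, and that of Erbb2 lines was 0.03, with 4 of 8 positive, beside -0.14 and 7598 of 20690. After quantile normalization 6 of 8 were positive in both comparisons. The medians were 0.63 for Hras and 0.25 for Erbb2 lines, beside -0.03 and -0.03 for all genes. After centring 6 of 8 were positive for Hras and 4 of 8 for Erbb2 lines. The medians were then 0.50 and 0.06, beside -0.23 and -0.11 for all genes.

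Dkk3, a divergent member of the Dickkopf family, had 8.11, 6.68 and 6.73 in Hras 1, 2 and 3, above NSC at 6.29, 5.80 and 5.54, while Erbb2 1, 2 and 3 had 7.66, 5.91 and 5.65. The difference between Hras lines and NSC was 1.30 (SE 0.57, limma adjusted p = 0.408), and 0.83 without Hras 1. Sfrp4 was at 6.38, 6.73 and 8.59 in the Hras lines and at 5.84, 5.71 and 5.43 in the Erbb2 lines, a difference of 1.57 (SE 0.60, limma adjusted p = 0.391), and NSC 1, 2 and 3 had 6.50, 4.86 and 4.99. The Hras lines were thus above the Erbb2 lines but not above NSC 1, and without Hras 3 the difference was 0.90. Sfrp2 ranged from 5.86 to 8.79 with Erbb2 3 and Hras 2 highest, and its groups overlapped. Dkk1, Dkk2 and Sfrp5 had their highest levels in Hras 3 (7.31 and 6.64) or Hras 2 (6.14) and spanned 5.23 to 6.26 on all arrays other than Hras 2 and 3.

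The nuclear mediators and the targets of the pathway did not lie on 1 side of NSC. Lef1, both a partner of beta-catenin and a gene that the pathway induces, had 6.4, 6.04 and 5.77 in NSC 1, 2 and 3, 9.63, 6.83 and 6.80 in Erbb2 1, 2 and 3 and 8.75, 6.74 and 6.39 in Hras 1, 2 and 3. Erbb2 1 and Hras 1 stood far above the rest, and the other 4 tumour lines were at 6.39 to 6.83. Erbb2 lines differed from NSC by 1.68 (SE 0.81, limma adjusted p = 0.554), and by 0.74 without Erbb2 1. Hras lines differed from NSC by 1.22 (SE 0.81, limma adjusted p = 0.623), and by 0.50 without Hras 1.

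Axin2, a scaffold of the beta-catenin destruction complex that is widely used as a readout of Wnt activity, ran the other way in the Erbb2 lines. It had 7.05, 7.53 and 8.29 in NSC 1, 2 and 3, 6.64, 6.32 and 6.78 in Erbb2 1, 2 and 3 and 6.99, 7.74 and 6.82 in Hras 1, 2 and 3. The Erbb2 lines lay below both other groups, and Hras 2 lay above NSC 1 and 2. After quantile normalization or centring Erbb2 and Hras lines overlapped, and their difference went from 0.60 to 0.20 and 0.18. Erbb2 lines differed from NSC by -1.04 (SE 0.36, limma adjusted p = 0.432), and by -0.70 without NSC 3, the only array from the floxed strain. Hras lines differed from NSC by -0.44 (SE 0.36, limma adjusted p = 0.706), by -0.10 without NSC 3, and by -0.82 after quantile normalization or -0.83 after centring.

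Nkd1, an inhibitor of Dishevelled induced by Wnt signals, was at 7.18, 7.58 and 7.84 in NSC, 7.79, 7.08 and 6.27 in Erbb2 lines and 6.93, 7.39 and 6.63 in Hras lines, and all groups overlapped. Hras lines differed from NSC by -0.55 (SE 0.39, limma adjusted p = 0.648), and they lay below NSC without overlap after quantile normalization (-0.96), after centring (-0.94) and without NSC 1 (-0.73). Apcdd1, a membrane inhibitor, was at 7.03, 7.97 and 6.93 in NSC, 7.44, 7.36 and 7.67 in Erbb2 lines and 7.96, 7.53 and 8.18 in Hras lines, again with overlap. The tumour groups' mean difference from NSC was -0.74 for Axin2 (SE 0.31, limma adjusted p = 0.461), -0.52 for Nkd1, 0.38 for Apcdd1 and 1.45 for Lef1 (limma adjusted p = 0.663, 0.687 and 0.534 for the last 3). Ctnnb1, which encodes beta-catenin, spanned 11.28 to 12.10 with overlap of all groups. Tcf7 lay between 6.20 and 6.38 in Erbb2 lines, below NSC (6.41 to 7.10) and Hras lines (6.48 to 7.45), and overlapped both after quantile normalization or centring. Tcf7l1 and Tcf7l2 had their lowest levels in NSC 1, at 7.04 and 7.23, and Hras 1, at 7.28 and 7.44, against 7.43 to 9.16 and 8.02 to 9.45 on the other arrays.

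The promoters of Lef1 and Axin2 are shown because both genes are known targets of TCF and LEF factors and their levels lay on opposite sides of NSC in the Erbb2 lines. Both are RefSeq sequences of GRCm38.p6 over the same window on the plus strand, at chr3:131110047-131110346 for Lef1, the first of its 4 entries, and at chr11:108920099-108920398 for Axin2. Capitals mark the letters CTTTG, of which Lef1 holds 2 and Axin2 0. The longer form CTTTGA or TCAAAG, which contains the core, is in neither, and is held by 16.2% of all 27025 promoters. Of the 30 genes of the pathway with a promoter in the table, 14 (46.7%) hold the core, beside 54% of all promoters. The longer form is held by 3 of the 30 (10%), beside 16.2%.
Lef1: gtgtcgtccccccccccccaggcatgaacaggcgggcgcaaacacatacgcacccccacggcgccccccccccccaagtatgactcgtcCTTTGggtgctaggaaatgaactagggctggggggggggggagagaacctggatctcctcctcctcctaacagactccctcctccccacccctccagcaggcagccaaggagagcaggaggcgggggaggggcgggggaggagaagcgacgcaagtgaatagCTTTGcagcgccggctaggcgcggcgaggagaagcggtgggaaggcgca
Axin2: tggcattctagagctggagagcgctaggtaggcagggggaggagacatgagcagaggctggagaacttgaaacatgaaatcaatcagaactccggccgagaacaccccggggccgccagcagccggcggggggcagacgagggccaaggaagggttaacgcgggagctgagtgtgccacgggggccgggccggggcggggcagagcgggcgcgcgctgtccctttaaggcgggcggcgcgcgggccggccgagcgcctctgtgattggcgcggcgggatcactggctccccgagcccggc

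**Figure D3:**
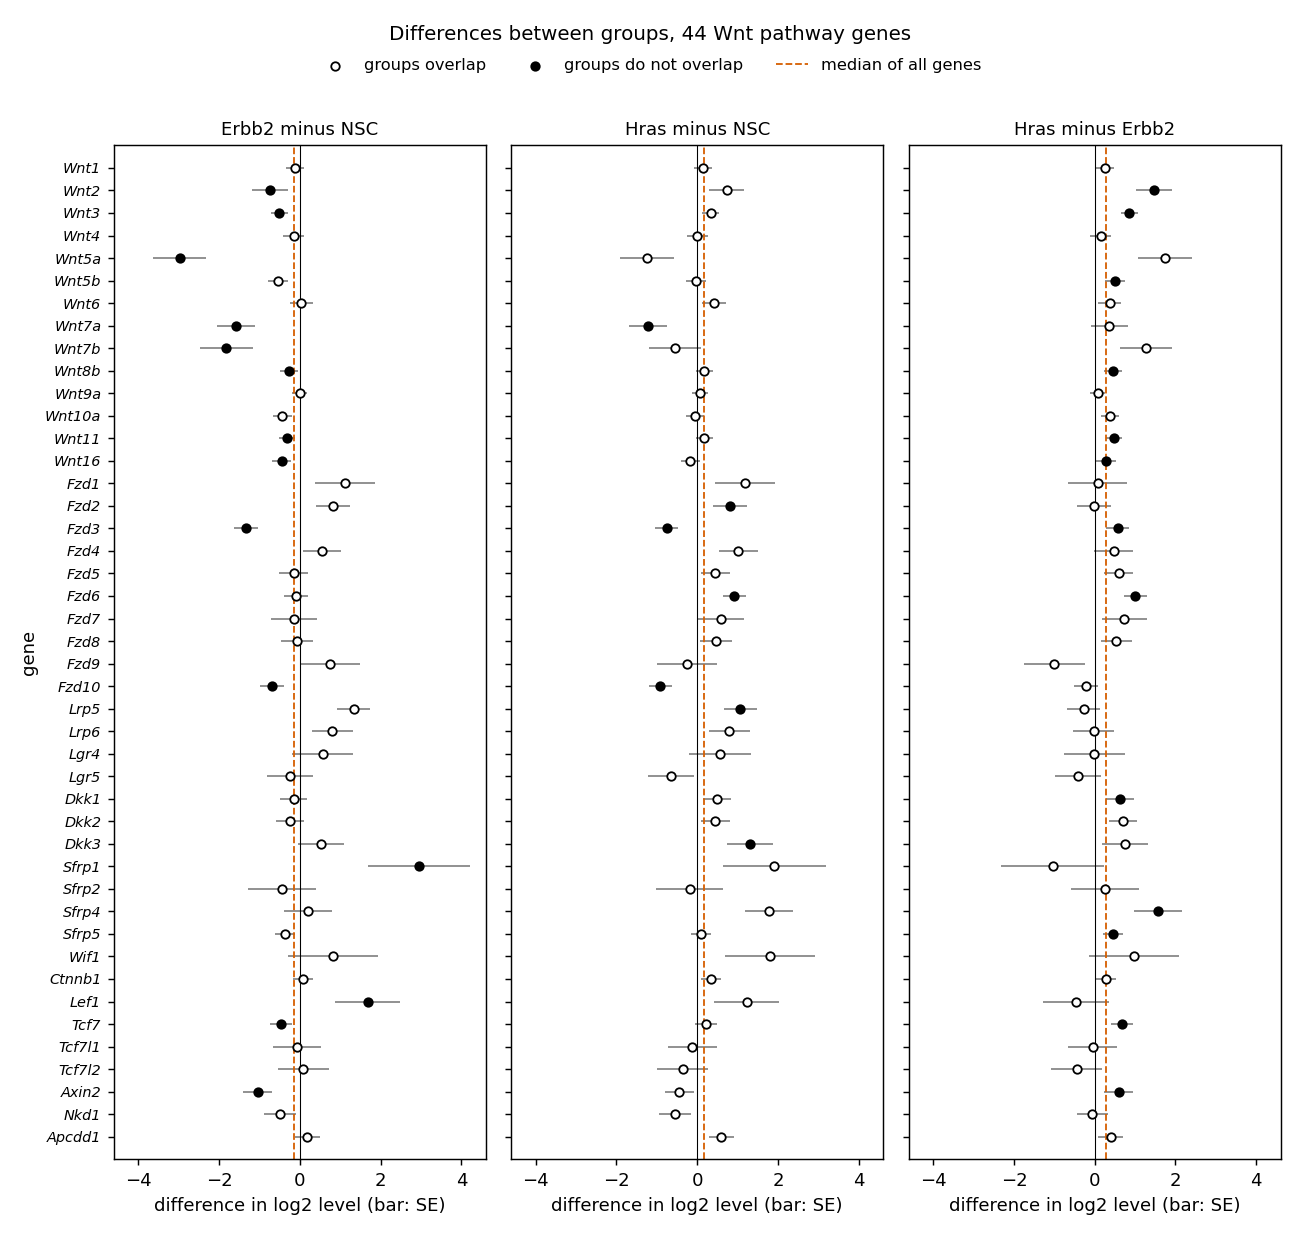
Difference in log2 level between groups (horizontal axis; bar, SE) for the 44 genes in 3 comparisons, filled where the arrays of the 2 groups do not overlap; the dashed line is the median of all genes. Wnt5a is farthest left and Sfrp1 farthest right for Erbb2 lines against NSC, and no gene passed the test.

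Some pathway genes were highest in 1 line of each oncogene. Fzd9, Lgr4, Dkk3, Sfrp1, Wif1 and Lef1 had Erbb2 1 and Hras 1 as their 2 highest arrays, which makes 6 of 44, or 13.6%, beside 3.62% of all genes. This pattern was picked after their values were seen. The 6 markers of oligodendrocyte precursors (Pdgfra, Cspg4, Olig1, Olig2, Sox10 and Gpr17) had their highest means on the same arrays, 11.07 in Erbb2 1 and 10.5 in Hras 1. Erbb2 2 and Hras 2 followed with 10.25 and 9.54, and Erbb2 3 and Hras 3, at 8.29 and 8.10, were near NSC, at 7.82 to 8.12. The markers did not all share that order: Olig1 and Olig2 were at 9.17 to 12.24 on every array, NSC included, and Pdgfra was at 9.06 to 11.89 in all tumour lines against 5.16 to 5.79 in NSC. Sox10, a factor that defines the oligodendrocyte lineage, was at 11.56 in Erbb2 1, 10.60 in Erbb2 2, 10.59 in Hras 1 and 8.61 in Hras 2, and at 6.17 to 6.73 on the other arrays. The part of these markers in the levels of the 6 pathway genes was not tested. The column names of Erbb2 1 and Hras 1 also open with the same number, which no other column has. What that number marks is not stated, and it cannot be told apart from other traits that these 2 lines share.

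**Figure D4:**
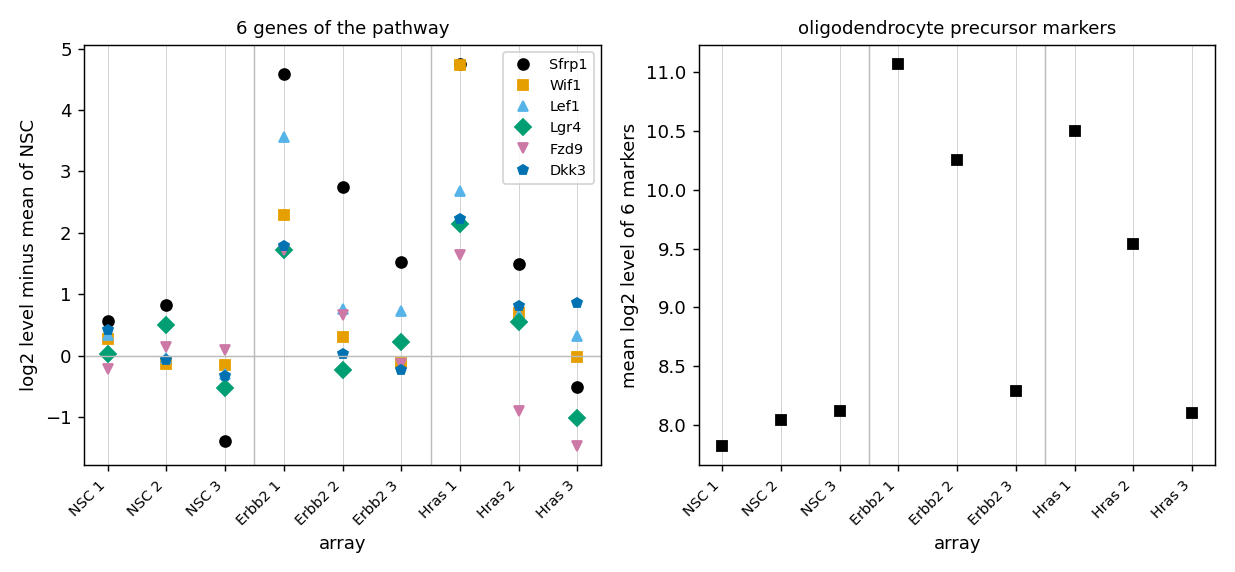
Left, log2 level minus the mean of NSC for 6 pathway genes on each array; right, mean log2 level of 6 oligodendrocyte precursor markers on the same arrays. Erbb2 1 and Hras 1 are highest in both panels.

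Between the 2 oncogenes, 13 of 44 genes lay higher in all Hras than in all Erbb2 lines and 0 lay lower, beside 25.6% and 2.05% of all genes (27.7% in either direction). The members' median difference was 0.39 and that of all genes 0.29. All 14 ligands had a positive difference, beside 16307 of 20690 for all genes. Only 7 of 14 ligands did after quantile normalization and 7 of 14 after centring. The ligands' median difference moved from 0.42 to -0.02 under the first. The genes that lay higher in Hras lines under all 3 scalings were Wnt2, Wnt3 and Sfrp4. In Erbb2 lines Wnt2, at 4.85 to 5.04, was under the limit for dim genes and Wnt3, at 5.20 to 5.37, near it. Wnt9a and Wnt16 lay lower in Hras lines after quantile normalization, and Wnt9a after centring. In either direction the share was then 11.4% of the 44 beside 15.7% of all genes, and 9.09% beside 18.4%.

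A further 60 genes of Wnt signalling, listed for their role in ligand release, reception, the destruction complex, transcription or planar polarity, gave 1 call. It was made for the tumour mean against NSC, where 0.353% of all genes were called. In each of the other comparisons 0 of 60 were called (smallest limma adjusted p 0.0904). Of all genes, 0% were called for Hras lines against NSC or Erbb2 lines, and 0.00967% for Erbb2 lines against NSC. Sostdc1, a secreted antagonist of Wnt and BMP signals that binds Lrp co-receptors, fell from 8.24, 7.88 and 6.65 in NSC 1, 2 and 3 to 5.33, 5.24 and 5.57 in the Erbb2 lines and 5.18, 5.85 and 5.26 in the Hras lines. All tumour lines lay below all NSC arrays and close to the limit for dim genes. The difference of the tumour mean from NSC was -2.18 (SE 0.34, limma adjusted p = 0.0456). The call was lost after quantile normalization (limma adjusted p = 0.0625), over all probe sets (0.0808) and without any array other than NSC 3 (0.0532 to 0.214), while the difference stayed between -2.65 and -1.86.

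Draxin, a secreted guidance factor that inhibits Wnt signals, had 6.91, 8.17 and 7.14 in NSC, 6.01, 5.71 and 6.07 in Erbb2 lines and 6.35, 6.84 and 6.33 in Hras lines, all tumour lines lying below NSC (difference -1.19, SE 0.29, limma adjusted p = 0.164). Sostdc1 and Draxin were the 2 of 60 genes (3.33%) below NSC in all tumour lines, beside 1.28% of all genes. Prickle2, of planar polarity, was the single gene of the 60 (1.67%) above NSC in all tumour lines, beside 2.87% of all genes. It stood at 6.99 to 8.19 against 6.20 to 6.59 (difference 0.99, SE 0.28, limma adjusted p = 0.237). In Erbb2 lines against NSC, 8 of 60 genes lay lower without overlap (13.3%), beside 12.6% of all genes, and 3 higher (5%), beside 5.09%. Celsr1, a cadherin of planar polarity, was lower in Erbb2 lines (5.61 to 6.01) than in NSC (6.12 to 7.59). The Dkk receptor Kremen1 was at 9.34 to 10.92 in Erbb2 lines and at 7.74 to 9.17 in NSC.

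Frzb, a decoy related to Sfrp1, and Nkd2, a relative of Nkd1, were singled out after their values were seen. Nkd2 had 10.34, 9.31 and 5.47 in Erbb2 1, 2 and 3 and 9.51, 7.81 and 5.95 in Hras 1, 2 and 3, against 5.24 to 5.98 in NSC. Frzb had 9.56, 8.17 and 4.87 in the Erbb2 lines and 8.31, 6.59 and 5.34 in the Hras lines, against 4.64 to 5.95 in NSC. In both genes Erbb2 3 and Hras 3 lay within the NSC range and Erbb2 1 and Hras 1 were highest of their groups, as were the means of the oligodendrocyte precursor markers. With Kremen1, Prickle1 and Prickle2 they were the 5 of 60 genes (8.33%) with Erbb2 1 and Hras 1 as their highest arrays. Of all genes, 3.62% had these 2 arrays as their highest. The column names of these 2 arrays open with the same number, as given above.

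**Figure D5:**
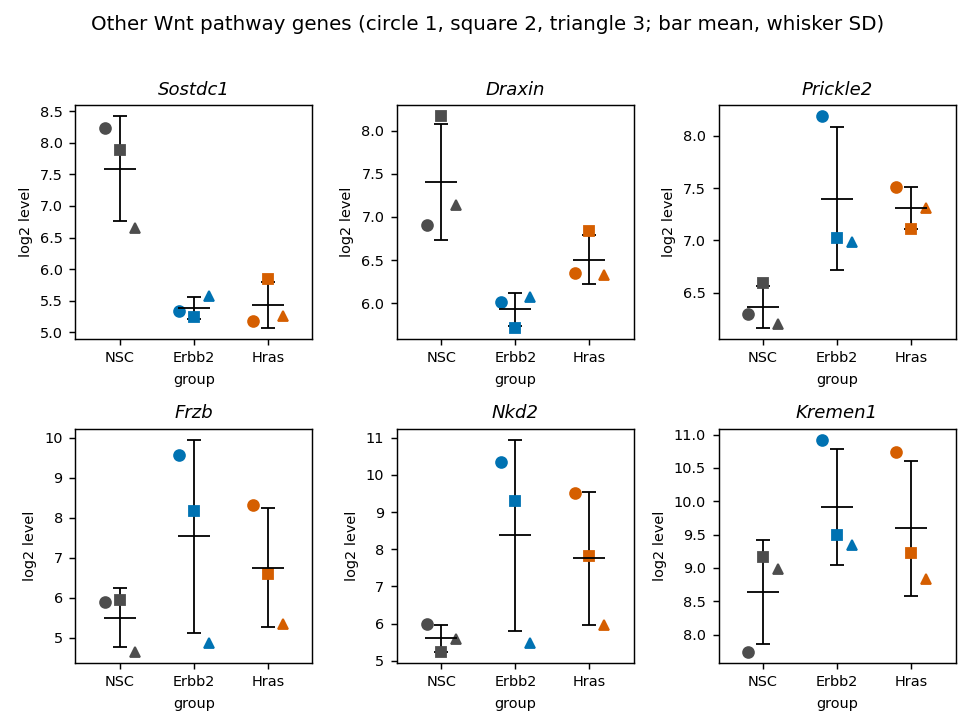
Log2 level of 6 further Wnt pathway genes in each group; symbols are arrays (circle 1, square 2, triangle 3), bars means and whiskers SD. Sostdc1 and Draxin are lower on all tumour arrays than in NSC, and Frzb and Nkd2 are highest on Erbb2 1 and Hras 1.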

How the data were processed

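Total RNA from 9 cultures was hybridised to Affymetrix Mouse Gene 1.0 ST arrays, per the labels' protocols. The authors deposited a table of log2 levels with a symbol per gene, and linear intensity values for 35511 probe sets. The sources used here do not give the background correction, normalization or probe summary. Of 20715 rows of the gene table, 25 with a number for a symbol were left out. All 44 genes matched by symbol, all are current RefSeq symbols, and each equalled the log2 of 1 probe set within 1e-04. Columns were assigned to arrays by the names in the descriptions, and 0 value columns stayed unmapped.

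Group means of all 9 arrays were fitted with limma 3.58.1 (R 4.3.3; 6 residual and 3.12 prior degrees of freedom), tested on simulated data first. P-values were adjusted by Benjamini-Hochberg over 20690 genes, with a threshold of 0.05. Precision rests on 3 arrays per group. Genes called, or whose groups did not overlap with an absolute difference over 1, and 4 targets are given array by array. The 44 genes and all lists were chosen with earlier results of these data known. Alternatives were quantile normalization, centring, removal of dim genes, a variance trend, array weights, the title number as a block, the probe-set table, fits of the compared groups alone and removal of each array.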

Additional observations from a re-analysis of the deposited data

How the results depend on the processing

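With 3 arrays per group, 0 of 44 genes were called in each comparison under each alternative run, leaving out any array included, with 1 exception. With the number in the titles as a replicate block, 1 gene, Wnt7a, was called for the tumour mean against NSC (difference -1.40, limma adjusted p = 0.0403, 92 genes called in all against 73), and the block changed no other call among the genes named. The labels do not say that a number marks a shared origin: deviations of same-numbered arrays correlated between -0.34 and 0.44, and 1 of 9 arrays correlated best with its own number in both other groups. The numbers that open the column names pair Erbb2 with Hras lines but no NSC array with either. For these tumour pairs 1, 2 and 3 the correlations were 0.34, -0.34 and 0.44. The block, and so the call for Wnt7a, rests on an NSC pairing that the column names do not give. Leaving out 1 array at a time moved the difference of Hras from Erbb2 lines between -1.18 and 0.48 for Lef1 and between -0.45 and 0.31 for Nkd1, and that of Erbb2 lines from NSC between -0.01 and 0.51 for Apcdd1. Over all genes, calls for the tumour mean against NSC numbered 73 as reported, 12 after quantile normalization, 23 after centring, 19 over probe sets and 0 to 70 without 1 array; calls for Hras lines against NSC numbered 0 as reported, 70 with array weights and 76 without NSC 1, and those for Erbb2 lines against NSC numbered 2 as reported and 0 to 37 otherwise. Differences changed sign for Lef1 (0.48) and Nkd1 (0.31) in Hras against Erbb2 lines without Erbb2 1, for Nkd1 without Hras 3 (0.11), for Apcdd1 in Erbb2 lines against NSC without NSC 3 (-0.01), and for Apcdd1 in Hras against Erbb2 lines when arrays were centred (-0.02); the cause was not tested.

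Counts of genes whose groups did not overlap were recomputed under alternatives chosen after seeing the data. In Hras lines against NSC the count was 7, and 11 after quantile normalization (17.1% of all genes), 13 after centring (25.3%) and 19 without NSC 1 (36.5%). In Hras against Erbb2 lines it was 13, and 5 after quantile normalization (15.7% of all genes) and 4 after centring (18.4%). For all tumour lines against NSC it was 3, and 5, 7 and 6 under the same settings in the first order (6.57%, 9.55% and 10.7% of all genes). For Erbb2 lines against NSC it was 14, and 11, 15 and 16 (14%, 19.1% and 26.1% of all genes). Genes near the limit for dim levels, among them Wnt1, Wnt8b and Sostdc1 in tumour lines, are limited by signal over background.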
